A study of Mus musculus with 28 samples.

Results

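The data describe 10 genes for RNA-binding proteins that regulate alternative splicing, measured by bulk RNA sequencing of mouse peripheral nerve along development. The genes were taken by name as Qk, Mbnl1, Mbnl2, Mbnl3, Ptbp1, Ptbp2, Celf1, Celf2, Srrm4 and Rbfox2, each matched through its mouse Ensembl identifier. They are 10 of the 41605 genes in the table of raw read counts, and all 10 were among the 17700 genes that passed the filter on low counts and were tested. The timeline had 7 stages, namely embryonic days (E) 13 and 17 and postnatal days (P) 1, 5, 14, 24 and 60, with 4 libraries at each stage and 28 in all.

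All mice were C57BL/6J wild type without treatment, and the design text gives 2 male and 2 female samples at each stage. At E13 each library came from various nerves distal to the dorsal root ganglia, pooled from 2 embryos, although the label names sciatic nerve at every stage. At E17 the sciatic nerves of 2 embryos were pooled, and from P1 on each library came from the sciatic nerves of 1 mouse. From E17 on, the outer sheaths of the nerve were stripped off before RNA was extracted. Age, tissue and dissection therefore changed together between E13 and E17, and their effects on any value cannot be told apart. The libraries held poly(A) RNA of the whole nerve, so the values belong to no single cell type, and fewer cells of a type cannot be told apart from less RNA per cell. Counts per gene say how much RNA of a splicing regulator was present, and nothing on its isoforms, its protein or on splicing itself.

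Alternative splicing joins different sets of exons from 1 gene, and RNA-binding proteins decide which exons are kept by binding near splice sites. Some of these proteins act against each other: MBNL proteins favour the splicing patterns of mature tissue and CELF1 those of immature tissue, while PTBP1 represses neuronal exons that are used once PTBP1 gives way to its paralogue PTBP2. Quaking (QKI, from Qk) is known in myelinating glia, where it binds myelin RNAs and controls their splicing, stability and export. SRRM4 drives the inclusion of microexons in neurons, and RBFOX2 is the broadly expressed member of the RBFOX family. RBFOX3 marks neurons, and RBFOX1 is found in neurons and in muscle.

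The coordinates here are those of GENCODE M21 on the mouse build GRCm38. Qk (ENSMUSG00000062078) lies at chr17:10202601-10319854 on the minus strand. The muscleblind genes are at chr3:60472830-60629750 (Mbnl1, plus strand), chr14:120275669-120431697 (Mbnl2, plus) and chrX:51117269-51206532 (Mbnl3, minus). Ptbp1 is at chr10:79854427-79864771 (plus) and Ptbp2 at chr3:119718742-119784466 (minus). Celf1 is at chr2:90940382-91019497 (plus), Celf2 at chr2:6539694-7509563 (minus), Srrm4 at chr5:116439275-116591817 (minus) and Rbfox2 at chr15:77078990-77307004 (minus). The exons of Ptbp1 share 251 bases with Plppr3 and 295 bases with E130317F20Rik on the opposite strand. Those genes had 7374 and 2608 counts over all libraries, and whether the counting used the strand is not stated.

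Promoter windows from RefSeq on GRCm38.p6, from 250 bases before to 50 after the start of transcription, were at hand for 9 of the 10 genes and not for Rbfox2. Windows are shown for 2 genes whose level was higher at P60 than at E17 (Qk and Mbnl1) and for 2 whose level was lower after early stages (Ptbp1 and Srrm4), 5′ to 3′ on the strand of the gene, with the GC box GGGCGG and its reverse complement CCGCCC in capitals, overlapping copies included.
Qk, chr17:10319312-10319611, minus strand: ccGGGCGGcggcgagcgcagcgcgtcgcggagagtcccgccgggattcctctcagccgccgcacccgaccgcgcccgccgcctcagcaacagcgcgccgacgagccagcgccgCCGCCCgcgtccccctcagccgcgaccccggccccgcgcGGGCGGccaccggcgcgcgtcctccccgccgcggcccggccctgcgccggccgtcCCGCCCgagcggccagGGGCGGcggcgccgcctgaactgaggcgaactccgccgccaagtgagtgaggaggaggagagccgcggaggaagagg
Mbnl1, chr3:60500929-60501228, plus strand: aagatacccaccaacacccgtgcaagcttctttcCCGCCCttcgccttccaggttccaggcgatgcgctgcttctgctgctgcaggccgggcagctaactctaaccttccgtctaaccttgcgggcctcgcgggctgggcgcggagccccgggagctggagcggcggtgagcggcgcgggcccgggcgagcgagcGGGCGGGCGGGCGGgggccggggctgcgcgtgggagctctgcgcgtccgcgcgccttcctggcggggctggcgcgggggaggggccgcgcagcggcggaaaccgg
Ptbp1, chr10:79854182-79854481, plus strand: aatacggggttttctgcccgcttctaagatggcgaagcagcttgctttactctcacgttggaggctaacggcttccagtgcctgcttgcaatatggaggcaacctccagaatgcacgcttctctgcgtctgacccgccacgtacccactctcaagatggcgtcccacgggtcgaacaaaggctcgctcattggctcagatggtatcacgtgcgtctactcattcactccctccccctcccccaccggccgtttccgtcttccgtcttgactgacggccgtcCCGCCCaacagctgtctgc
Srrm4, chr5:116591768-116592067, minus strand: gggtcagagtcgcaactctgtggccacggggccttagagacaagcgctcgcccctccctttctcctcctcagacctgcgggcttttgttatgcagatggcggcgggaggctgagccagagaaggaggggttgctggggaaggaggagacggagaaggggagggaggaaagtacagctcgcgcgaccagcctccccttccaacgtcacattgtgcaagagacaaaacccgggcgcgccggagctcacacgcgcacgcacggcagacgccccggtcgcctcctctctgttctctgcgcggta
The Qk window holds 57 CG dinucleotides, more than 99.8% of all 32851 promoter windows, whose median is 7. The Mbnl1 window holds 41, that of Srrm4 25 and that of Ptbp1 22. Mbnl1 has a second window in the table, at chr3:60472580-60472879, with only 2. The GC box occurs 5 times in the Qk window, 4 times in that of Mbnl1, once in that of Ptbp1 and not in that of Srrm4, and it occurs in 35.7% of all promoter windows.

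QKI binds RNA at the core ACUAAC or ACUAAU, often with a second short UAAC or UAAU nearby. These letters were sought as DNA, on the strand of the RNA, in the longest annotated 3′ untranslated region of each of 19921 genes, and a site was taken as the core with the short element 1 to 20 bases away in a span of at most 30 bases. Of these regions 14.2% held such a site. Among the 10 splicing regulators it was found in Qk itself and in Mbnl2, Mbnl3 and Celf2, and among 10 transcripts known as targets of these proteins in Cdkn1b, which encodes a cell cycle inhibitor, and in Mbp. The spans are shown because they place the letters of the QKI element in the RNA of 4 of the regulators and of 1 target, Cdkn1b, with the core and the short element in capitals. In Mbnl3 a second pair overlaps the one shown, and the site in Mbp is not shown here.
Qk, chr17:10206550-10206567, minus strand: TAATaccaacctACTAAC
Mbnl2, chr14:120430955-120430969, plus strand: ACTAATtgttgTAAC
Mbnl3, chrX:51119955-51119980, minus strand: ACTAACtactttaaaggtatacTAAT
Celf2, chr2:6546708-6546726, minus strand: ACTAATgtgcagttcTAAC
Cdkn1b, chr6:134922878-134922906, plus strand: ACTAATgctcccacagaattgatttTAAC
A match is a description of the letters and not a measured binding site. The core occurred 5 times in the 7014 bases of the Qk region and 5 times in the 3738 bases of Mbnl3, that is 0.713 and 1.34 per kilobase, against 0.362 per kilobase over all regions. It occurred 2 times in Mbnl2 (0.728 per kilobase), 3 times in Srrm4 (0.567, with no full site), 3 times in Celf2 (0.406), once in Mbnl1 (0.295) and not in Celf1, Ptbp1, Ptbp2 or Rbfox2. The full site occurred at 0.143 per kilobase in Qk and 0.135 in Celf2, whose regions are long, near the 0.119 over all regions. It occurred at 0.364 in Mbnl2 and at 0.535 in Mbnl3, where the 2 sites counted overlap in the same stretch.

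The libraries held 13899895 to 37662780 counts, and no pair of replicates agreed within sampling noise. Levels are given as CPM, the counts scaled to a common library size by TMM. Stages were compared by edgeR's quasi-likelihood test with Benjamini-Hochberg adjustment over all genes tested, and a gene is called where its adjusted p was under 0.05 and its fold at least 2, while "rose" and "fell" need the adjusted p only. Markers of Schwann cells (Sox10, S100b, Erbb3 and Foxd3) had a summed level of 193 to 515 CPM at E13 and of 1197 to 1959 CPM in the later libraries. Markers of neuronal cell bodies (9 genes, Tubb3 and Elavl3 among them) summed to 1559 to 2777 CPM at E13 and to at most 58.2 CPM in any later library. Markers of skeletal muscle (9 genes) summed to 28.9 to 635 CPM at E13 and to 26.3 CPM or less later, those of macrophages (5 genes) to 179 to 312 CPM at E13 and 85.4 to 96.8 CPM at E17, and those of red blood cells (6 genes) to 610 to 5794 CPM and 313 to 878 CPM. In 3 libraries the counts followed the GC content of the genes most closely. The log2 level changed by -0.93 per 10 points of GC in E13 replicate 1, by 0.72 in E13 replicate 4 and by -0.42 in P1 replicate 1, and by no more than 0.20 in size in any other library.

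**Figure D1:**
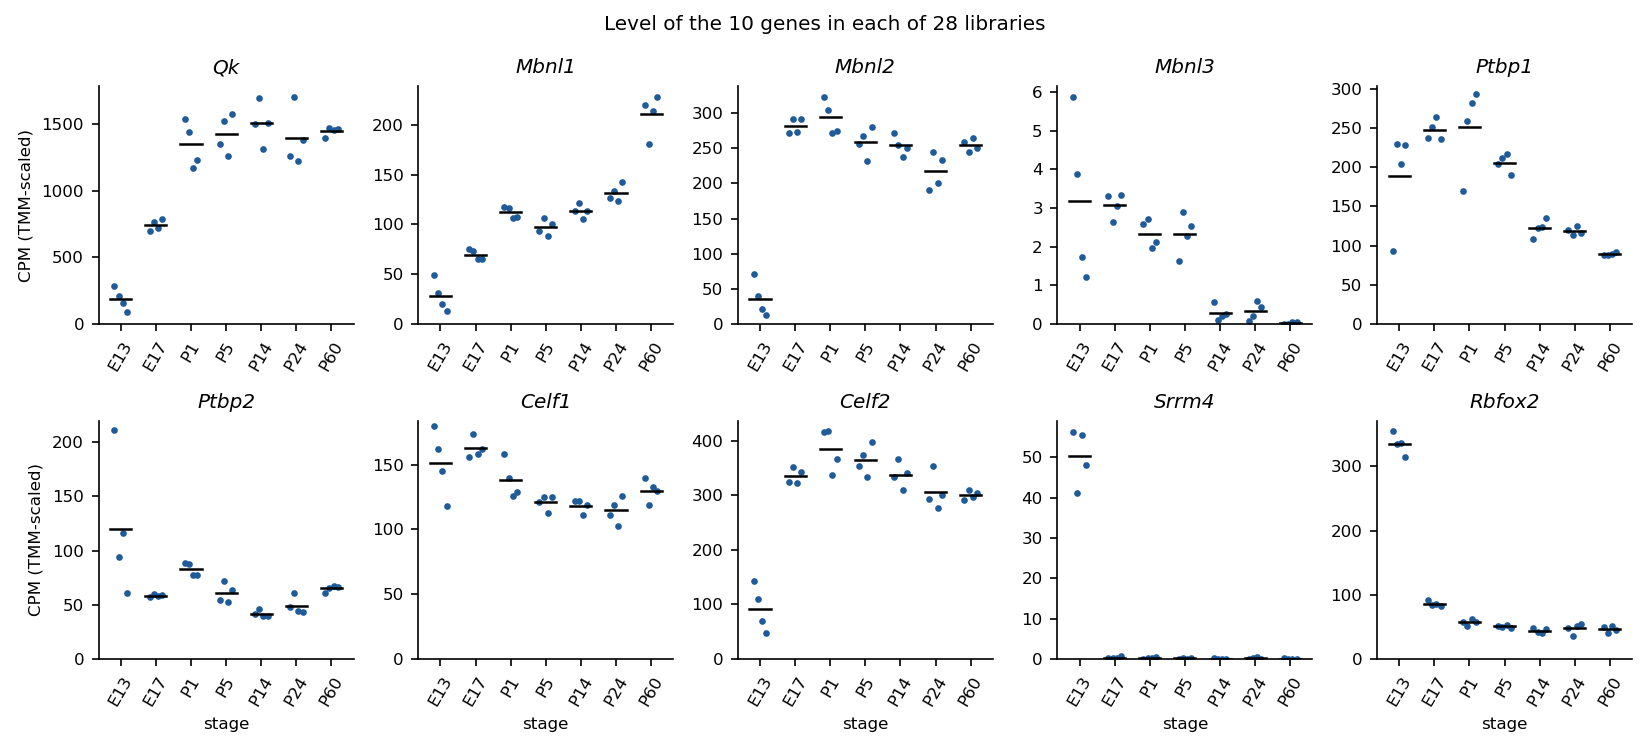
Level of each of the 10 genes (vertical axis, TMM-scaled CPM from 0) in every library at the 7 stages (horizontal axis), with points for libraries and bars for the mean of 4. Qk climbed from 188 CPM at E13 to 1346 CPM at P1, Mbnl1 reached its highest level at P60, Ptbp1 and Mbnl3 were lowest at P60, and Srrm4 was above 1 CPM at E13 only.

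Qk was the most abundant of the 10 genes from P1 on and rose in steps from E13 to P1. Its level was 288, 214, 156 and 93 CPM in the 4 libraries at E13, 694, 767, 718 and 791 CPM at E17, and 1539, 1441, 1172 and 1232 CPM at P1. The 3 stages did not overlap. The rise from E13 to E17 was 1.98 ± 0.20 on the log2 scale (SE; adjusted p = 2.9e-09), and that from E17 to P1 0.86 ± 0.20 (adjusted p = 0.0013). From P1 to P60 the stage means lay between 1346 and 1504 CPM, the ranges of neighbouring stages overlapped, and no further comparison passed the test. At P60 the level was 1393, 1466, 1454 and 1463 CPM, all 4 libraries above the 4 at E17, with a log2 difference of 0.96 ± 0.20 (adjusted p = 0.00012), which stays just under the fold of 2 needed for a call. Without E17 replicate 4 it was 1.01 and past that fold. Per length of exon Qk reached 101 ± 2.4 RPKM at P60 (reads per kilobase of exon, scaled as CPM; SD, n = 4), against 21.2 ± 0.76 RPKM for Mbnl2, the next gene.

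The E13 libraries disagreed on Qk by a factor of 3.1 between the highest and the lowest. After the GC trend of each library was removed, the 4 values lay closer together, at 167, 207, 166 and 156 CPM. The rise to E17 was then 2.09 on the log2 scale.

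Mbnl1, the muscleblind gene first studied in myotonic dystrophy, where its protein is trapped on expanded RNA repeats, rose from E13 to P1 and again to its highest level at P60. Its level was 49.2, 31, 20.5 and 12.7 CPM at E13, 75, 72.9, 65.5 and 65.3 CPM at E17, 117, 116, 106 and 107 CPM at P1 and 220, 181, 214 and 228 CPM at P60. Each of these 4 stages lay wholly above the one before. Mbnl1 rose from E13 to E17 by 1.29 ± 0.22 on the log2 scale (adjusted p = 9.4e-06), from E17 to P1 by 0.68 ± 0.21 (adjusted p = 0.0157) and from P24 to P60 by 0.69 ± 0.21 (adjusted p = 0.0246). Between P1 and P24 its stage means were 97 to 131 CPM and no neighbouring pair passed the test over the 28 libraries. Without the E13 libraries all 3 steps passed, P5 against P1 as lower (log2 -0.23 ± 0.08, adjusted p = 0.0199), P14 against P5 as higher (0.23 ± 0.08, adjusted p = 0.0163) and P24 against P14 as higher (0.23 ± 0.08, adjusted p = 0.0433). From E17 to P60 it was called, at 3.03-fold (log2 1.60 ± 0.22, adjusted p = 3e-07). The step from P24 to P60 did not pass when any of P24 replicates 1, 2 and 3 or P60 replicates 1, 3 and 4 was left out (adjusted p 0.053 to 0.068), and it passed by a wide margin when the E13 libraries were kept out of the fit (log2 0.70 ± 0.08, adjusted p = 5.3e-08). Markers of other cell types stood higher at the later stages as well. The summed level of 4 perineurial markers was 461 to 494 CPM at E17, 830 to 1149 CPM at P24 and 1394 to 1828 CPM at P60, that of 5 endoneurial mesenchymal markers 526 to 654, 1319 to 3024 and 2777 to 4424 CPM, and that of 5 pericyte and smooth muscle markers 128 to 158, 392 to 558 and 545 to 599 CPM. From E17 to P60 4 of 4, 2 of 5 and 4 of 5 of them were called higher, no endothelial marker was called (295 to 352 CPM at E17 and 330 to 339 CPM at P60), and their part in the rise of Mbnl1 was not tested.

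Mbnl2, its closest paralogue, rose between E13 and E17 and passed no later comparison over the 28 libraries. The 4 libraries had 70.8, 39.6, 20.9 and 12.7 CPM at E13 and 272, 291, 273 and 291 CPM at E17. The lowest E17 library held more than 3 times the highest E13 library, and the fitted rise was 7.8-fold (log2 2.96 ± 0.28, adjusted p = 9.4e-10; 3.67 by limma-voom with quality weights). The later stage means ran from 217 CPM at P24 to 294 CPM at P1. Unlike for Qk and Mbnl1, the spread between the E13 libraries shrank little when the GC trend was removed, from a factor of 5.56 to 5.3, in the order replicate 1, 2, 3, 4 from high to low in both cases.

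Mbnl3, the X-linked muscleblind gene, went the other way and was nearly absent from the adult nerve. Its level was 5.86, 3.88, 1.73 and 1.21 CPM at E13, 3.3, 2.64, 3.06 and 3.33 CPM at E17, 1.63, 2.89, 2.27 and 2.53 CPM at P5 and 0.562, 0.113, 0.204 and 0.266 CPM at P14. At P60 2 libraries had 0 counts and the other 2 had 1 count each. Because so few reads are left, folds are given as ratios of pooled counts with a 95% interval that covers counting error only. Mbnl3 was 8.43-fold lower at P14 than at P5 (262 counts against 25, interval 5.58 to 13.3), and the fit called this fall (adjusted p = 1.9e-05). From P24 to P60 it dropped from 29 counts to 2 (ratio 11, interval 2.77 to 94.9, adjusted p = 0.0125), and P60 lay 91.3-fold below E17 (242 counts against 2, interval 25 to 758, adjusted p = 9.9e-09). When only the libraries of P24 and P60 were fitted, Mbnl3 had too few counts to pass the filter and was not tested. From P5 to P14, P24 to P60 and E17 to P60 all 5 proliferation markers were called lower as well. Of 6 red blood cell markers 0, 4 and 6 were called lower, and the part of either in the fall of Mbnl3 was not tested.

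Celf1, which acts against MBNL proteins in heart and muscle, was the steadiest of the 10 genes. Its stage means ran from 115 CPM at P24 to 163 CPM at E17, and neighbouring stages in the order of level overlapped throughout. At E17 the libraries had 156, 174, 158 and 162 CPM and at P60 140, 119, 133 and 130 CPM, without overlap. The fall between them was small, 0.32 ± 0.10 on the log2 scale (1.25-fold, adjusted p = 0.0089), and no comparison of neighbouring stages passed the test over the 28 libraries. In 7 alternative settings P1 against E17 did, among them limma-voom (log2 -0.30), the Wald test of DESeq2 (-0.26) and the GC trend removed (-0.24), and without the E13 libraries P1 against E17, P5 against P1 and P60 against P24 passed. It is the 1 gene of the 10 whose stage means differed by less than 2-fold, with a range of 0.51 on the log2 scale.

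Celf2, its paralogue, rose between E13 and E17, as Mbnl2 did. It had 143, 110, 68.9 and 47.5 CPM at E13 and 325, 351, 322 and 342 CPM at E17. The stages did not overlap, and the rise was 3.62-fold (log2 1.86 ± 0.19, adjusted p = 4.3e-09). From E17 on its stage means ran from 300 to 385 CPM, and no comparison passed over the 28 libraries. Without the E13 libraries P1 against E17 did (log2 0.20 ± 0.08, adjusted p = 0.0355).

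Ptbp1, known as a repressor of neuronal exons, fell between P5 and P14. It had 93.3, 230, 204 and 228 CPM at E13, where replicate 1 stood below the other 3, and 237, 251, 264 and 236 CPM at E17. The difference of 0.39 ± 0.18 on the log2 scale did not pass (adjusted p = 0.0621), and with the GC trend removed, at 0.45, it did. E13 replicate 1 was still the lowest then, at 128 CPM beside 221, 189 and 185 CPM. At P1 the values were 169, 259, 281 and 293 CPM. P1 replicate 1, a library with a GC trend, stood below the other 3. At P5 the values were 204, 211, 217 and 190 CPM, at P14 108, 123, 124 and 135 CPM, and at P60 87.6, 88.3, 89.7 and 92.4 CPM. Every P14 library lay below every P5 library, and every P60 library below every P24 library. The fall from P5 to P14 was 0.75 ± 0.18 on the log2 scale (1.68-fold, adjusted p = 0.0022), and the difference between P24 and P60, 0.41 ± 0.18 on the log2 scale, did not pass (adjusted p = 0.136). From E17 to P60 Ptbp1 fell 2.76-fold and was called (log2 -1.46 ± 0.18, adjusted p = 8.1e-08). The summed level of 5 proliferation markers (Mki67, Top2a, Ccnb1, Cdk1 and Bub1) was 2139 to 2223 CPM at E17, 546 to 675 CPM at P5, 109 to 148 CPM at P14 and 3.86 to 5.4 CPM at P60. All 5 were called lower at P14 than at P5 and at P60 than at E17, and their part in the fall of Ptbp1 was not tested.

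Ptbp2, the neuronal paralogue, was highest at E13, with 211, 93.9, 116 and 60.7 CPM, and had 57.6, 59.6, 58.2 and 58.7 CPM at E17. All E13 libraries lay above all E17 libraries, E13 replicate 4 by a small margin only. The fall was called at 2.06-fold (log2 -1.04 ± 0.21, adjusted p = 0.00012), and its size was 0.91 on the log2 scale with the GC trend removed and 0.84 without E13 replicates 1 and 4, both under a fold of 2. Without E13 replicate 1 alone it was 0.64. Afterwards the means of Ptbp2 and Ptbp1 both went down from P1 to P14. From P24 to P60 that of Ptbp2 went up while that of Ptbp1 went down. The mean of Ptbp2 was 82.8 CPM at P1 and 60.6 CPM at P5. It was lowest at P14 with 41.7 CPM, and reached 48.9 CPM at P24 and 65.1 CPM at P60. The summed level of the 9 neuronal cell body markers was 20.3 to 25 CPM at P14, 33.4 to 44.5 CPM at P24 and 50.5 to 58.2 CPM at P60, and its part in the later values of Ptbp2 was not tested. No comparison of neighbouring stages after E17 passed the test over all 28 libraries. In the fit without the E13 libraries 4 of them did: Ptbp2 was higher at P1 than at E17 (log2 0.50 ± 0.10, adjusted p = 0.00012), lower at P5 than at P1 (-0.48 ± 0.10, adjusted p = 0.00029), lower at P14 than at P5 (-0.54 ± 0.10, adjusted p = 5.3e-05) and higher at P60 than at P24 (0.43 ± 0.10, adjusted p = 0.0013).

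Srrm4, the neuronal microexon regulator, was found in the E13 libraries and barely after. It had 56.2, 41.2, 55.5 and 48 CPM at E13, that is 5167 counts in the 4 libraries. At E17 the 4 libraries held 5, 3, 6 and 10 counts, or 0.275, 0.158, 0.233 and 0.628 CPM. The ratio of E13 to E17 was 167 (interval 112 to 261, counting error only, adjusted p = 1.4e-11). No later library held more than 15 counts, and at P60 the 4 libraries held 3 counts together, 1007-fold below E13 (interval 344 to 4885). The neuronal cell body markers fell between the same stages, all 9 of them called, and their part in the fall of Ptbp2, Srrm4 and Rbfox2 was not tested.

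Rbfox2 fell at the same step and again around birth, but stayed present. It had 355, 335, 336 and 315 CPM at E13, 91.3, 83.6, 86 and 82.2 CPM at E17 and 58, 51.2, 62.9 and 56.9 CPM at P1. None of these stages overlapped. The fall from E13 to E17 was 3.91-fold (log2 -1.97 ± 0.11, adjusted p = 1.6e-14) and that from E17 to P1 1.5-fold (log2 -0.58 ± 0.11, adjusted p = 0.0001). From E17 to P1 6 of 9 skeletal muscle markers were called lower as well (summed level 8.66 to 26.3 CPM at E17 and 1.71 to 4.05 CPM at P1), as were 3 of 9 neuronal cell body, 5 of 6 red blood cell and 2 of 5 proliferation markers, and their part in the fall of Rbfox2 was not tested. From P5 on the stage means were 44.1 to 50.6 CPM and overlapped, and at P60 Rbfox2 was 1.86-fold below E17 (log2 -0.89 ± 0.11, adjusted p = 3.8e-08).

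**Figure D2:**
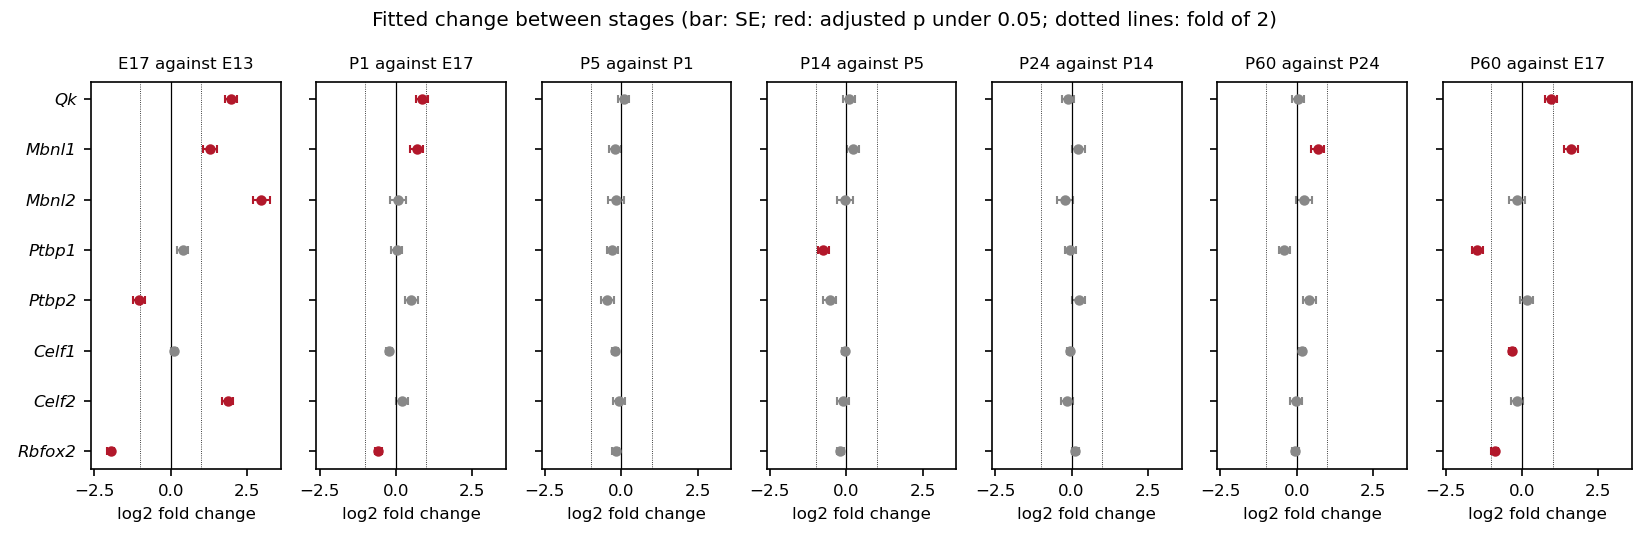
Fitted log2 fold change (horizontal axis) of 8 of the genes in the 7 comparisons (panels), with SE as bars, red where the adjusted p was under 0.05 and dotted lines at a fold of 2. Mbnl3 and Srrm4 are left out because their fitted folds rest on a few counts. The changes from E13 to E17 run from -1.97 for Rbfox2 to 2.96 for Mbnl2, while no gene passed between P1 and P5 or between P14 and P24.

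Set side by side, the genes changed most between E13 and E17. There 7 of 10 were called, Qk, Mbnl1, Mbnl2 and Celf2 as higher and Ptbp2, Srrm4 and Rbfox2 as lower, while 35.5% of all genes tested were called, 14.2% as higher and 21.2% as lower, and 62.2% passed the adjusted p alone. In the same step all 4 Schwann cell markers, all 5 proliferation markers, 3 of 4 perineurial, 3 of 5 endothelial and 2 of 5 endoneurial mesenchymal markers were called higher. The summed level of the perineurial markers went from 108 to 185 CPM in the E13 libraries to 461 to 494 CPM in the E17 libraries, that of the endothelial markers from 155 to 217 CPM to 295 to 352 CPM, and that of the endoneurial mesenchymal markers from 154 to 337 CPM to 526 to 654 CPM. All macrophage and red blood cell markers and 8 of 9 skeletal muscle markers were called lower, and the part of this shift in the values of the 10 genes was not tested. The E13 and E17 libraries did not overlap for 8 of the 10, against 46.8% of all genes.

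From E17 to P1 none was called and 3 passed the adjusted p (Qk and Mbnl1 higher, Rbfox2 lower), with 5 under an unadjusted p of 0.05, where 11.7% of all genes were called and 29.5% passed. Between P1 and P5 none passed in the edgeR fit (5.84% called and 17.6% passing among all genes), with 1 of 10 under an unadjusted p of 0.05, Ptbp2. Between P5 and P14 1 was called, Mbnl3, and Ptbp1 passed as well (12.0% and 29.6%). P24 against P14 gave none in the edgeR fit (2.65% and 5.45%), and none of the 10 had an unadjusted p under 0.05. From P24 to P60 1 was called, Mbnl3, and Mbnl1 passed as well (5.96% and 16.1%). By limma-voom and DESeq2, too, none of the 10 was called for P1 against E17, P5 against P1 or P24 against P14. In none of these steps after E17 was more than 1 of the 10 genes called. Scaled by library size alone, the share of higher calls among all calls went from 40.1% to 28.7% for E17 against E13, from 53.8% to 43% for P1 against E17, from 69.4% to 44.7% for P5 against P1 and from 59.1% to 46.2% for P14 against P5. It went the other way, from 57.1% to 64.9%, for P24 against P14 and from 42.7% to 52.5% for P60 against P24.

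Between E17 and P60, the longest span within sciatic nerve, 3 of 10 were called, Mbnl1 as higher and Mbnl3 and Ptbp1 as lower, and 6 passed the adjusted p. Over all genes 39.7% were called, 22.2% as higher and 17.5% as lower, and 64.3% passed. All 10 genes had groups that did not overlap, against 67.7% of all genes. Scaled by library size alone, which moves the median of all genes from 0.00 to -0.31 on the log2 scale and the share of higher calls from 56% to 42%, 5 of the 10 were called, Rbfox2 and Srrm4 in addition. Without P60 replicate 1, and by limma-voom or DESeq2, Srrm4 alone was called in addition, and without E17 replicate 4 Qk was. Over the whole timeline 9 of 10 were called, all but Celf1, where 70.3% of all genes were. With library size alone Celf1 was called too. Without the E13 libraries 4 of the 9 genes tested were called, and the share of all genes was not taken for that fit.

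The SE of these genes was smaller in the fit without the E13 libraries, for instance 0.10 against 0.21 for Ptbp2. Without them, 9 of the 10 were tested, since Srrm4 then failed the filter, and more passed the adjusted p in the steps after E17. For P1 against E17 6 of 9 passed (45.7% of all genes), for P5 against P1 5, all lower (35.2%), for P14 against P5 4 (46.6%), for P24 against P14 1, Mbnl1 (14.5%), for P60 against P24 6 (31.2%) and for P60 against E17 6 (74.5%). From P1 to P5 the 5 were Mbnl1, Mbnl2, Ptbp1, Ptbp2 and Celf1, with log2 changes of -0.21 to -0.48. From P24 to P60 Mbnl1, Mbnl2, Ptbp2 and Celf1 rose and Mbnl3 and Ptbp1 fell, Ptbp1 by 0.39 ± 0.10 on the log2 scale (adjusted p = 0.0036).

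**Figure D3:**
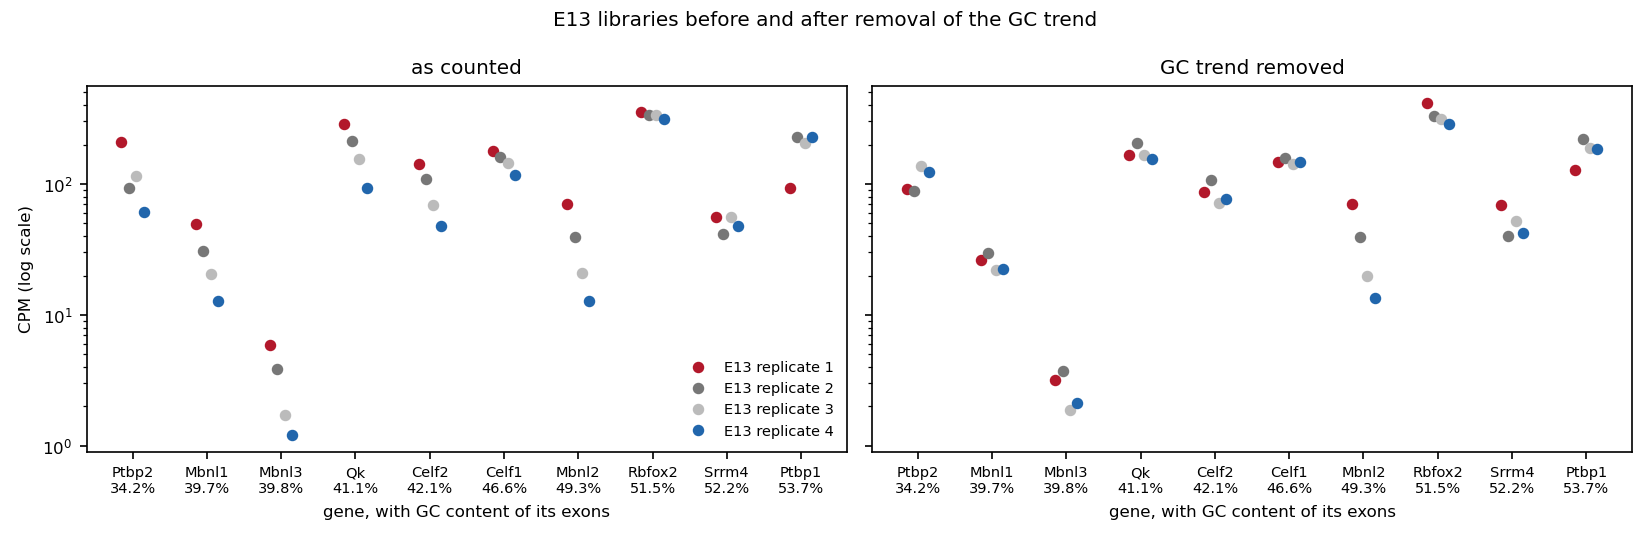
Level of the 10 genes in the 4 E13 libraries (vertical axis, CPM on a log scale), ordered by the GC content of their exons (horizontal axis), as counted (left) and after the GC trend of each library was removed (right). The ratio of the highest to the lowest library narrows from 3.48 to 1.53 for Ptbp2 and from 3.01 to 1.49 for Celf2, while for Mbnl2 it is 5.56 before and 5.3 after, and it widens from 1.36 to 1.72 for Srrm4 and from 1.13 to 1.46 for Rbfox2.

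Pairs of genes whose proteins act against each other or replace each other were compared as ratios of their counts within a library, which do not depend on how libraries are scaled. A ratio of counts is not corrected for gene length, so its changes and not its sign carry information. Over 4 pairs and 7 comparisons 28 two-sided exact permutation tests were run, the smallest p that 4 against 4 libraries allow is 0.029, and 18 of the 28 tests reached it, with an adjusted p of 0.044. These tests are unpaired. With P1 and E17 libraries paired by number the smallest p is 0.125, so none of the 4 ratios would pass for P1 against E17.

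The log2 ratio of Mbnl1 to Celf1 increased at nearly every stage. It was -2.57 ± 0.58 at E13 (SD, n = 4) and -1.22 ± 0.11 at E17. After birth the P1 mean was -0.31 ± 0.09, that of P5 -0.32 ± 0.07, that of P14 -0.07 ± 0.04, that of P24 0.20 ± 0.04 and that of P60 0.69 ± 0.09. Every comparison except P5 against P1 reached the smallest p by the exact permutation test, with no overlap between libraries. The total change from E17 to P60 was 1.92 on the log2 scale. Most of this ratio's movement lay in Mbnl1, since Celf1 differed by 0.32 between the same stages.

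The log2 ratio of Mbnl2 to Mbnl1 moved in the opposite direction after E17. It went from 0.23 ± 0.26 at E13 to 2.02 ± 0.12 at E17, and then fell to 1.39 ± 0.05 at P1, 1.17 ± 0.08 at P14, 0.72 ± 0.12 at P24 and 0.27 ± 0.12 at P60. Again only P5 against P1 did not reach the smallest p of the exact permutation test. The GC trend was taken against the stage mean, so its removal was bound to leave the mean at E13 nearly unchanged. After it the 4 E13 libraries spread from -0.76 to 1.42.

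The log2 ratio of Ptbp2 to Ptbp1 was -2.08 ± 0.08 at E17 and -0.46 ± 0.05 at P60. All P60 libraries lay above all P24 libraries, whose mean was -1.29 ± 0.26 (difference 0.83, exact permutation p = 0.029, adjusted p = 0.044). From P1 to P24 no comparison passed. At E13 the libraries had 1.18, -1.30, -0.81 and -1.91, so that replicate 1 stood apart, and with the GC trend removed they had -0.49, -1.31, -0.48 and -0.58. The exons of Ptbp2 and Ptbp1 have a GC content of 34.2% and 53.7%, the lowest and the highest of the 10 genes. The E13 and E17 libraries did not overlap under either treatment, and the difference between the stages, -1.37, was -0.74 without E13 replicate 1. The difference between P1 and E17, 0.51, was 0.29 without P1 replicate 1.

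The log2 ratio of Celf2 to Celf1 rose from -0.82 ± 0.45 at E13 to 1.04 ± 0.03 at E17 and 1.48 ± 0.09 at P1, both steps without overlap. It was 1.59 ± 0.06 at P5 and 1.21 ± 0.14 at P60, and no step after P1 passed. P60 against E17, with a difference of 0.16, gave an exact permutation p of 0.057 (adjusted p = 0.080).

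**Figure D4:**
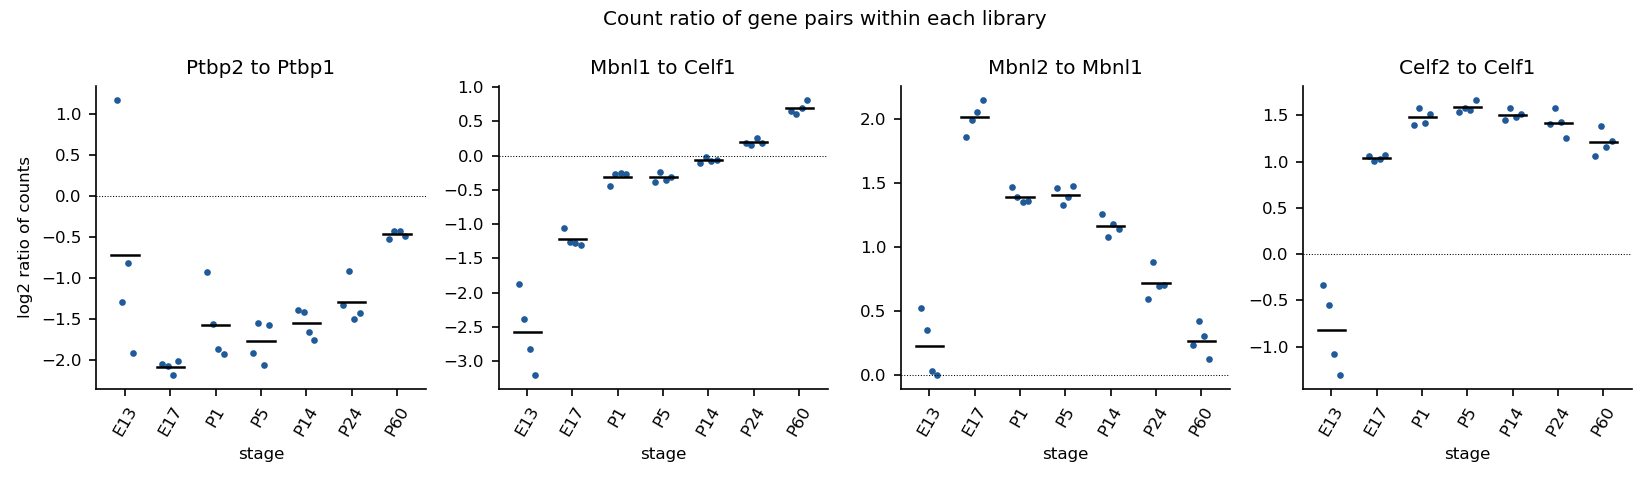
Log2 ratio of the counts of 4 gene pairs (vertical axis) in every library at the 7 stages (horizontal axis), with points for libraries and bars for the mean of 4. Mbnl1 to Celf1 climbs from -1.22 at E17 to 0.69 at P60, and Ptbp2 to Ptbp1 sits at -0.46 at P60 after -1.29 at P24.

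Per length, the make-up of each family can be read as a share. The shares, and the order of genes given below, depend on the length used. That length was all annotated exons of a gene together, 25884 bases for Celf2 and 8446 for Celf1. Mbnl2 held 85.2% ± 1.02 (SD, n = 4) of the summed Mbnl level at E17 and 65.3% ± 1.96 at P60, while Mbnl1 went from 13.5% ± 1 to 34.7% ± 1.95. The sum itself was 27.6 ± 0.867 RPKM at E17 and 32.5 ± 1.65 RPKM at P60. In the Ptbp family, where Ptbp3 is the third gene, the sum went from 74 ± 3.51 RPKM at E17 to 34.8 ± 0.681 RPKM at P60. Ptbp1 held 70.4% ± 0.523 of it at E17 and 54.3% ± 1.21 at P60, and Ptbp2 8.64% ± 0.391 and 20.4% ± 0.904. Ptbp1 thus stayed the leading Ptbp gene of the adult nerve in all 4 libraries, with at least 53% of the family's level.

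Celf1 and Celf2 held 59% ± 0.409 and 39.7% ± 0.579 of the Celf level at E17, and 54.8% ± 2.2 and 41.3% ± 2.22 at P60. Without the division by length the order was reversed. Celf2 had 335 CPM and Celf1 163 CPM at E17, and 300 and 130 CPM at P60. At E13 the other 4 members were not minor, with Celf3 at 25.6% ± 10.5 and Celf5 at 12% ± 1.06. Celf5 was also the only one of them to come back to over 1%, with 1.78% ± 0.193 at P14 and 3.42% ± 0.146 at P60. Rbfox2 held 67.2% ± 5.73 of the Rbfox level at E13, beside Rbfox1 at 24.2% ± 8 and Rbfox3 at 8.51% ± 2.46, and 95.6% to 99.3% on average at every later stage.

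**Figure D5:**
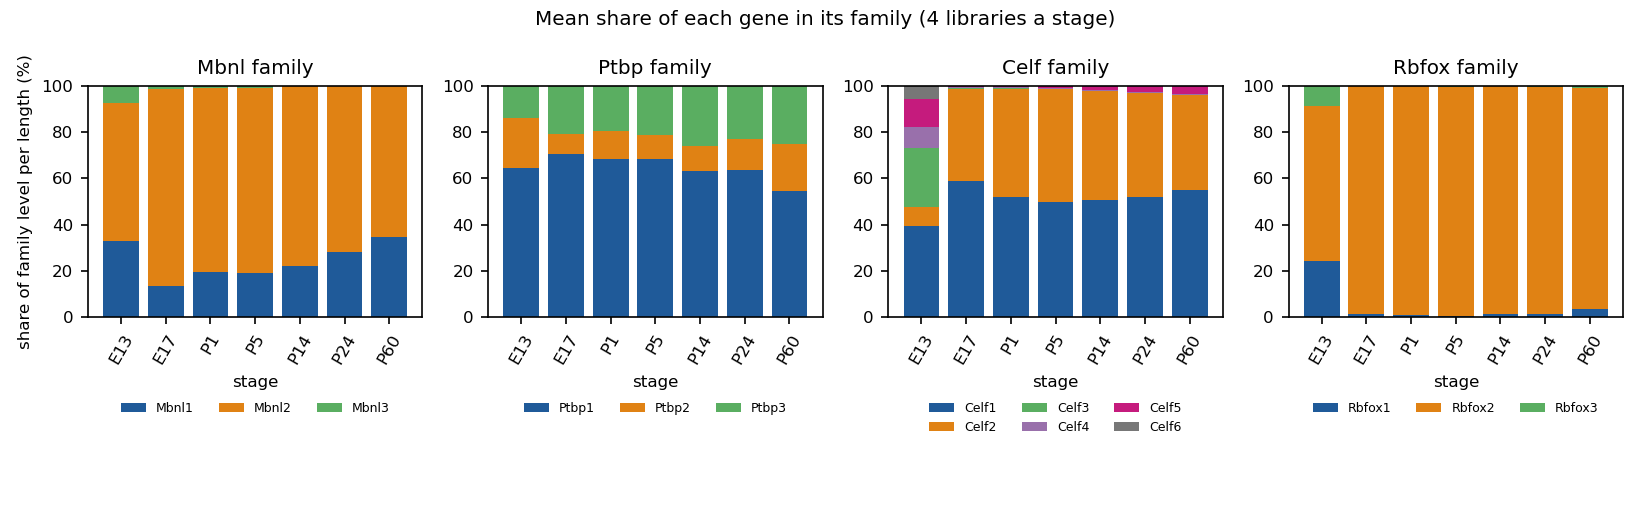
Mean share of each gene in the summed level per length of its family (vertical axis, percent, bars stacked from 0 to 100) at the 7 stages (horizontal axis), in panels for the Mbnl, Ptbp, Celf and Rbfox families with 4 libraries a stage. Mbnl1 grows from 13.5% at E17 to 34.7% at P60, and Celf3 to Celf6, Rbfox1 and Rbfox3 each hold more than 5% at E13 only.

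In order of the level per length, Rbfox2 (41.2 ± 2 RPKM) and Ptbp1 (39.9 ± 13.7 RPKM) led at E13 with overlapping ranges, and Qk came after Celf1 (17.9 ± 3.12 RPKM) with 13.2 ± 5.83 RPKM. At E17 Qk and Ptbp1 shared the lead at 52.1 RPKM each. From P1 on Qk led without overlap, followed by Ptbp1, Mbnl2, Celf1 and Celf2 through P24, with Celf1 and Celf2 overlapping at each of these stages. At P60 Mbnl2 stood before Ptbp1 (18.9 ± 0.447 RPKM), and Mbnl1 at 11.3 ± 1.1 RPKM overlapped with Celf2 at 11.6 ± 0.296 RPKM. Rbfox2 stood below Ptbp2 (7.09 ± 0.286 RPKM) with 5.67 ± 0.6 RPKM, and Srrm4 and Mbnl3 came last.

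Other splicing regulators were taken as lists by protein family or class. Of 11 further genes of the same families, 8 were called lower and none higher from E13 to E17, where 21.2% of all genes were called lower, with a median log2 change of -5.31 against -0.08 over all genes. One of them, Rbfox3, is also among the neuronal markers. From E17 to P60 2 of the 11 were called higher and 5 lower (median -1.17 against 0.00), where 22.2% of all genes were called higher and 17.5% lower. Khdrbs1 (Sam68), a signalling-linked STAR protein like QKI, fell from 166 ± 10.6 CPM at E17 to 68.7 ± 4.61 CPM at P60 (log2 -1.27 ± 0.11, adjusted p = 2e-10). Its relative Khdrbs3 fell from 53.6 ± 3.42 to 23.8 ± 2.75 CPM (log2 -1.17 ± 0.14, adjusted p = 3.6e-08).

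Of 15 other tissue-restricted regulators, such as the Nova, Elavl, Esrp and Musashi genes, 10 were called lower and none higher from E13 to E17 (median -2.39 against -0.08 over all genes), where 21.2% of all genes were called lower and 14.2% higher. From E17 to P60 3 were called higher and 4 lower (median -0.72 against 0.00), where the shares of all genes were 22.2% and 17.5%. Elavl3 and Elavl4 are also among the neuronal markers. Msi1 (Musashi 1), an RNA-binding protein of neural progenitors, fell from 12.1 ± 0.839 CPM at E17 to 0.989 ± 0.436 CPM at P60 (log2 -3.58 ± 0.27, adjusted p = 3.7e-12), and Msi2 from 57.1 ± 2.99 to 27.9 ± 5.57 CPM (log2 -1.04 ± 0.16, adjusted p = 3.1e-06).

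Of 13 SR proteins, which bind exons and mostly promote their inclusion, 8 were called lower and none higher from E17 to P60, where 17.5% of all genes were called lower. Of the 13, 11 passed the adjusted p as lower, against 31.5% of all genes, and the median log2 change was -1.18 against 0.00 over all genes. Srsf3 went from 265 ± 4.83 to 84.9 ± 0.93 CPM (log2 -1.64 ± 0.15, adjusted p = 1.3e-10) and Tra2b from 115 ± 3.49 to 44.9 ± 2.12 CPM (log2 -1.36 ± 0.16, adjusted p = 4.5e-08). Between P5 and P14 7 of the 13 passed as lower and none as higher, where 14.2% of all genes passed as lower. The proliferation markers fell in both comparisons, and their part in the fall of the SR and hnRNP genes was not tested.

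Of 23 hnRNP proteins, the class of RNA-binding proteins to which PTBP1 belongs as hnRNP I, 8 were called lower and none higher from E17 to P60, where 17.5% of all genes were called lower. The adjusted p alone was passed by 21 as lower and none as higher, against 31.5% and 32.8% of all genes. The median log2 change was -0.95 against 0.00 over all genes, close to a fold of 2, and with library size alone 19 were called lower. Hnrnpa1 fell from 505 ± 5.26 CPM at E17 to 149 ± 5.81 CPM at P14 and 117 ± 6.36 CPM at P60 (log2 -2.11 ± 0.13, adjusted p = 5.7e-14), and Hnrnpab from 352 ± 14.8 to 94.6 ± 6.8 CPM between E17 and P60 (log2 -1.89 ± 0.11, adjusted p = 2.2e-14). The fall of 1.46 in Ptbp1 lay within the range of these genes.

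Of 10 transcripts known as targets of the 10 regulators, 4 were called higher and 1 lower from E17 to P60, and 7 passed as higher and 2 as lower, with a median log2 change of 0.99 against 0.00 over all genes. Of all genes 22.2% were called higher and 17.5% lower, and 32.8% passed as higher and 31.5% as lower. Mbp, the myelin basic protein gene whose RNA binds QKI, went from 67.7 ± 21.5 CPM at E13 and 1117 ± 73.8 CPM at E17 to 51459 ± 5559 CPM at P14 and 28317 ± 3781 CPM at P60. Nfasc (neurofascin), whose isoforms are spliced differently in glia and neurons, had 74.3 ± 8.14 CPM at E13, 2.15 ± 0.458 CPM at E17 and 681 ± 49.6 CPM at P60. Qk had 188, 743 and 1444 CPM at the same stages, and all 9 neuronal cell body markers were called lower from E13 to E17. The part of either in the values of Nfasc was not tested. Cdkn1b, which holds one of the sites shown above, rose from 61.6 CPM at E17 to 365 CPM at P60 (log2 2.57, adjusted p = 4.2e-16). Rest, named here after its values were seen, as was Cdkn1b, encodes a repressor of neuronal genes and is itself spliced by SRRM4. It rose by 0.88 from E13 to E17 (adjusted p = 0.00017) and fell by 0.92 from E17 to P60 (adjusted p = 0.00011), on the log2 scale.

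Among 11655 genes searched, those whose log2 CPM followed each regulator most closely over the 28 libraries were named by Pearson's r (Mbnl3, under 10 CPM at every stage, was left out), which describes shared stages and shared libraries and is not a test. Over the 7 stage means the r of the genes named was 0.889 to 0.997. Qk was followed most closely by Gnai1 (r = 0.993), Asah1 and Kcna2 (both 0.992), Mbnl2 by Megf9 (0.989), Ctso (0.987) and Mfsd14b (0.984), and Celf2 by Tm9sf3 (0.988), Gng12 (0.986) and Tbc1d8b (0.986). Mbnl1 was followed by Sec63 (0.978), Hipk1 (0.976) and Bcl2 (0.976), and Ptbp1 by Rcc2 (0.973), Snd1 (0.969) and Rabl6 (0.960). Rbfox2 had Nsg1 (0.984), Celf3 (0.982) and Map2 (0.979), and Srrm4 Amer3 (0.963) and Pax8 (0.957). The weakest likeness was that of Celf1, with Ankrd10 (0.922), Cbx5 (0.911) and Atl2 (0.907), and of Ptbp2, with Id4 (0.908), Synrg (0.875) and Luc7l (0.862).

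Within the 10 genes, r changed for several pairs when the E13 libraries were left out. Mbnl2 and Celf2 had r = 0.99 over 28 libraries and 0.72 over the 24 libraries from E17 on. Qk and Mbnl2 had 0.93 over 28 libraries and -0.17 over 24, and Qk and Celf2 0.94 and 0.18. Qk and Rbfox2 kept their opposite course, with -0.96 and -0.91, and Mbnl1 and Ptbp1 had -0.52 over 28 libraries and -0.81 over 24. Libraries of 1 stage share their age and dissection, so these values are not over independent points.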

How the data were processed

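The 28 libraries were single-end, poly(A)-selected, stranded RNA-seq libraries. Per the labels and the study's methods, the authors trimmed the reads, aligned them with STAR 2.6.1c and deposited raw read counts per gene made with featureCounts. The submitters' processing notes name the mouse build GRCm38.p5, while the study's methods name a human build. The gene identifiers are mouse. The strand setting and the treatment of multimapping reads are not given in the sources used here.

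Of 41605 identifiers 99.79% matched GENCODE M21. One edgeR model over all libraries (filterByExpr by stage, TMM, robust quasi-likelihood fit, stage as the only term) gave the 7 comparisons, with Benjamini-Hochberg adjustment over the 17700 genes tested. The threshold was an adjusted p of 0.05 and, for a call, a fold of 2. R 4.3.3, edgeR 4.0.16, limma 3.58.1, DESeq2 1.42.0, Python 3.11.15 and SciPy 1.17.1 were used. CPM values are counts over TMM-scaled library sizes. RPKM values divide these by the length of all annotated exons of a gene together, and not by that of the transcripts present. Ratios of 2 genes used log2 counts with 0.5 added. The GC trend was a lowess curve (span 0.3) of each library against its stage mean. Its removal evens out libraries within a stage and does not take out a GC difference between stages. Counting intervals of ratios are exact at 95%. On counts simulated for P60 against E17 over 16992 genes the fit recovered 85 of 103 genes changed 2-fold and 97 of 97 changed 4-fold, with 14 false calls. Here the adjusted p alone counted, without the minimum fold. The changed genes were drawn from those with higher counts, and all genes had a dispersion of 0.044. Genes with few counts are thus not covered.

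The 10 genes, the gene lists and the markers were chosen with earlier results of these data known. From each list the 2 genes with the largest change between E17 and P60 among those called, and with 10 CPM or more on average in whichever stage was higher, were named, and for each of the 10 genes but Mbnl3, which had no stage mean of at least 10 CPM, the 3 protein-coding genes with the highest r (of those with such a mean). A marker and a gene named by likeness are not reported here. Libraries had 13899895 to 37662780 counts, the depth that limits Mbnl3 from P14 and Srrm4 from E17 on. Embryonic libraries pooled 2 embryos, and p-values measure the spread between libraries. Replicate numbers were shared between stages, but no label links same-numbered libraries, which came from different animals. P1 against E17 was the only comparison in which the deviations of all 4 same-numbered pairs correlated at over 0.1 (r 0.13 to 0.37). A pairing of these stages by number was therefore tried as an alternative. It was read from these same data and is not known from the design. The values given for P1 against E17 are from the fit without the block. The replicate number as a block, other scalings, filters and tests, fewer stages and each library left out were tried as alternatives.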

Additional observations from a re-analysis of the deposited data

Results flagged for a closer look

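The Qk level at P60 was 1393 CPM in replicate 1, while the other 3 libraries lay between 1454 and 1466 CPM. The gap to the nearest library was 0.844 of the whole range, above the critical value of Dixon's test for 4 samples. Of 70 groups of 4 libraries examined this was the only 1, and chance alone would mark about 1 in 20. All 4 libraries at P60 lay above the 4 at E17.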

How the results depend on the processing

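Without a minimum fold, 3 of the 10 genes passed for P1 against E17, 2 for P14 against P5, 2 for P60 against P24 and 6 for P60 against E17, and of the lists 4 SR and 14 hnRNP genes for E17 against E13 and 21 hnRNP genes and 9 target transcripts for P60 against E17. With library size alone 5 of the 10 genes and 19 hnRNP genes were called for P60 against E17. With only P24 and P60 in the fit 0 of the 10 genes were called, since Mbnl3 was not tested, while Mbnl1 passed the adjusted p. Without the E13 libraries 4 of the 9 genes tested were called along the timeline, where fewer stages were tested. The share of all genes was not taken for that fit. Without E13 replicates 1 and 4 together, an alternative chosen after seeing the data, 2 hnRNP genes were called for E17 against E13. No other count moved by over 1.5 times, and no fold change of the 10 genes that was followed across the settings changed sign. Not all comparisons were followed. Mbnl2 for P1 against E17, for instance, with a log2 change of 0.06, was not. Ratios with 1 library left out carry no test, and without P1 replicate 1 the log2 ratio of Ptbp2 to Ptbp1 changed sign for P5 against P1, from -0.20 to 0.01. Of the fold changes 8 lost the threshold, 7 of them Mbnl1 for P60 against P24 and 1 Mbnl1 for P1 against E17 with library size alone (0.56, adjusted p = 0.056), and 29 gained it: Celf1 for P1 against E17 and Ptbp2 for P14 against P5 in 7 settings each, Ptbp1 for E17 against E13 in 6, Ptbp2 for P1 against E17 in 5 and Srrm4 for P60 against E17 in 4. The cause was not tested.

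With the replicate number as a block, Ptbp1 passed for E17 against E13 (log2 0.42, adjusted p = 0.027) and Ptbp2 for P14 against P5 (-0.54, adjusted p = 0.048), and no other call on the 10 genes changed. By the labels, libraries of different stages share only a number. Outside P1 against E17, r between same-numbered libraries ran from -0.45 to 0.67. There 1 to 2 of 4 libraries of the later stage correlated best with their own number. For the ratios the block allows no p under 0.125, so that the 4 ratios that passed for P1 against E17 do not pass with it. Depth limits Mbnl3 from P14 and Srrm4 from E17 on.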
